A study of Arabidopsis thaliana with 8 samples.

Results

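The genes described here were silent in wild-type *Arabidopsis thaliana* rosette leaves and expressed in those of the *mips1* mutant. They were chosen from their counts: at most 3 reads in each Col-0 library, a mean of at least 0.7 CPM (counts of a gene per 1000000 counts of its library) in *mips1*, and a mean under 0.7 CPM in *big* and in *mips1 big*. Of 37336 genes in the count table, 241 met the rule. Organelle genes and 2 nuclear loci were set aside. Since the levels in all 4 genotypes chose the genes, the differences from Col-0 are a description, and calls in those contrasts are not read as tests. The contrast of *mips1 big* with *big* is the 1 contrast whose direction the rule left free.

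MIPS1 is a myo-inositol phosphate synthase, the enzyme that starts the synthesis of myo-inositol, and plants without it form spontaneous lesions on their leaves, depending on light, in which salicylic acid (SA) accumulates and defence genes are switched on. BIG is a very large calossin-like protein with a known part in auxin transport, and the mutation of its gene was isolated as a suppressor of those lesions. Immune signalling in plants runs from receptors at the cell surface and NBS-LRR proteins inside the cell through kinases and transcription factors, among them WRKY proteins that bind the W-box, to peptides, cell wall enzymes and secondary metabolism. Many of the genes at the end of this chain are hardly transcribed in a healthy leaf.

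Messenger RNA was sequenced in 8 libraries, 2 for each of *mips1*, *mips1 big*, *big* and Col-0, and each library was made from rosette leaves pooled over several plants. All lines are in the Col-0 ecotype: *mips1* carries the T-DNA insertion *mips1-1*, *big* carries a lesion suppressor mutation that the labels name only by its gene and the study calls *somi2*, and *mips1 big* carries both. According to the labels, plants spent 1 week on agar medium, 2 weeks on soil in short days and 5 days in long days, where *mips1* forms lesions, whereas the RNA sequencing section of the study's methods gives other lengths for both day lengths. The 2 libraries of a genotype are not said to come from separate experiments, so the p-values below measure the spread between these samples, which may be partly technical.

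Libraries held 50123257 to 104501879 counts. A chi-square of the counts per degree of freedom between both libraries of a genotype was 8.40 in *mips1*, 10.4 in *mips1 big*, 4.80 in *big* and 123 in Col-0, so no pair was a single library deposited again. The Col-0 libraries thus differed most from each other. Organelle genes made up 2.67% and 0.926% of their counts. The summed level of 4 leaf mesophyll markers (*RBCS1A*, *LHCB1.3*, *CA1*, *RCA*) was 15074 and 14840 CPM in *mips1*, 28434 and 26312 CPM in *mips1 big*, 30954 and 30726 CPM in *big*, and 39299 and 38519 CPM in Col-0, and all 4 were called lower in *mips1* than in Col-0. Summed over each list, markers of other organs reached at most 0.120 CPM for 4 root genes, 0.505 CPM for 4 seed genes, 1.40 CPM for 5 pollen and tapetum genes and 3.02 CPM for 6 flower genes. The highest flower sum was in a *mips1 big* library. Of the 6 flower genes, only *PI* reached the 0.7 CPM of the rule in *mips1*. *PI* had 2.09 and 1.95 CPM in *mips1* and 0.0599 and 0.08 CPM in Col-0 and was called higher in *mips1*, whereas *AG*, at 0.314 and 0.278 CPM in *mips1* and 0.958 and 1.06 CPM in Col-0, was called lower. *LFY* had no count in *mips1* or Col-0. Whether the shifts in mesophyll or flower markers have a part in the levels below was not tested. In such bulk samples, fewer cells that express a gene and less RNA of it per cell cannot be told apart.

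Silence in Col-0 was common, and few of these genes reached the 0.7 CPM of the rule in *mips1*. Genes with reads in *mips1* under that level are not counted as reaching it. Of the 13306 nuclear genes with at most 3 counts in each Col-0 library, 271 reached 0.7 CPM in *mips1*, and 241 of them did so in *mips1* only. Another 28 also reached it in *mips1 big*, 2 reached it in *mips1 big* and in *big*, and none reached it in *mips1* and *big* without *mips1 big*. Among the genes that stayed under 0.7 CPM in *mips1*, 64 reached this level in both *mips1 big* and *big*, 31 in *mips1 big* only and 8 in *big* only.

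The sequence in front of the transcription start is shown for 7 of the 241 genes, because the share of promoters with a W-box is compared next and these genes run from no site to 4. AT2G44240 was the most abundant of the genes, *MIOX4* encodes a myo-inositol oxygenase, which opens the ring of myo-inositol, *RLP7* and *RLP28* encode receptor-like proteins, *CYP82C2* encodes a cytochrome P450 of indole-derived defence compounds, and AT1G13480 and AT1G13550 belong to a cluster of related genes on chromosome 1. Each stretch holds the 250 bases before the annotated start, 5′ to 3′ on the strand of the gene, from the RefSeq copy of the TAIR10 genome. Capitals mark W-boxes, TTGACC or TTGACT on either strand, so that a site on the other strand reads GGTCAA or AGTCAA.
AT2G44240 promoter: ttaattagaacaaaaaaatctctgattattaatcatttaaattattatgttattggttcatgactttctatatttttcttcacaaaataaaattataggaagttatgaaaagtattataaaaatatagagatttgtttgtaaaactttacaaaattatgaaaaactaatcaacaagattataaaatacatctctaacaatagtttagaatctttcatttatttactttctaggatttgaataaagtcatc
MIOX4 promoter: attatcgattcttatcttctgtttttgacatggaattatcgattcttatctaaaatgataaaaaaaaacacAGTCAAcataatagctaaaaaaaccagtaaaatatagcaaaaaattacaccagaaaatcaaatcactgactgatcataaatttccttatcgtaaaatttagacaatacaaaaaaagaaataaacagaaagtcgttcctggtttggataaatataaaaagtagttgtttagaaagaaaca
RLP7 promoter: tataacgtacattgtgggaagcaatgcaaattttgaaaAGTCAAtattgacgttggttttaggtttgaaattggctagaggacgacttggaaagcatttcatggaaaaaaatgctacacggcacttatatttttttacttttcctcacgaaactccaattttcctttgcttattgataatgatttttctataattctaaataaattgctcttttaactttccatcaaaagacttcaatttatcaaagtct
RLP28 promoter: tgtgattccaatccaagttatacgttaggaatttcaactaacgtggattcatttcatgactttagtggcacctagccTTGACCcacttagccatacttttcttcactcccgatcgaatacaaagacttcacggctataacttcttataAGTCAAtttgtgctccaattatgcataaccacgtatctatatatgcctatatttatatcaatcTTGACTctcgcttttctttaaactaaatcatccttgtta
CYP82C2 promoter: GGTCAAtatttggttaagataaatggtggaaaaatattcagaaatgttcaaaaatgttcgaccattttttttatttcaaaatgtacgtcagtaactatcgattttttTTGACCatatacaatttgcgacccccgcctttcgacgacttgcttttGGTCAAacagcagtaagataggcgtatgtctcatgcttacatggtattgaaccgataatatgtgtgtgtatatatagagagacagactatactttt
AT1G13480 promoter: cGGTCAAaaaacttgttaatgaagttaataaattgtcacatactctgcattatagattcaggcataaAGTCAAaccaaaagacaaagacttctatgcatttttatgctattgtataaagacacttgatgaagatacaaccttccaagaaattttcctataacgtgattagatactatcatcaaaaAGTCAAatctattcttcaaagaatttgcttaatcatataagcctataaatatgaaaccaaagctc
AT1G13550 promoter: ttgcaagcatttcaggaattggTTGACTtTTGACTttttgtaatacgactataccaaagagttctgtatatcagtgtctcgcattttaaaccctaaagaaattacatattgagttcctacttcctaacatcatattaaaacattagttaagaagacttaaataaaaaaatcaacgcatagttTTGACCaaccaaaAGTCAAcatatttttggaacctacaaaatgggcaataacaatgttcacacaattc
These lie at chr2:18289574-18289823 (plus strand), chr4:13297445-13297694 (plus strand), chr1:17643726-17643975 (plus strand), chr2:14031748-14031997 (plus strand), chr4:15462100-15462349 (plus strand), chr1:4624082-4624331 (minus strand) and chr1:4638331-4638580 (minus strand). No W-box was found in the AT2G44240 stretch, in which 19.2% of the bases are G or C. *MIOX4* and *RLP7* had 1 each, *RLP28*, *CYP82C2* and AT1G13480 had 3 each, and AT1G13550 had 4. In AT1G13550, 2 of the sites are separated by a single base, and in *RLP28* the nearest site ends 34 bases before the start.

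Over a window of 250 bases before to 50 bases after the start, 113 of the 241 promoters (46.9%) held at least 1 W-box, against 30.2% of the promoters of 13064 other genes silent in Col-0 and 31.4% of 37049 nuclear genes. At least 2 W-boxes were found in 14.5% of the promoters, against 6.16% and 6.98% in those groups. Restricted to protein-coding genes, the shares with at least 1 were 48.8%, 31.7% and 32.4%. The median GC content was 31.0%, against 33.3% and 32.7%. Of the other motifs, TGACG, the core of the as-1 element bound by TGA factors, was found in 22%, 21.2% and 22.7% of the promoters, the G-box CACGTG in 6.64%, 3.81% and 6.53%, and the GCC-box GCCGCC, bound by ERF factors, in 0.83%, 2.61% and 2.75%. The letters TTGACG hold TGACG and were not counted as a W-box. A match says only that these letters are in the window, and these shares are a description with no test. Among the more abundant genes in *mips1*, 62 of 120 genes (51.7%) had a W-box, and among the less abundant ones 51 of 121 (42.1%).

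**Figure D1:**
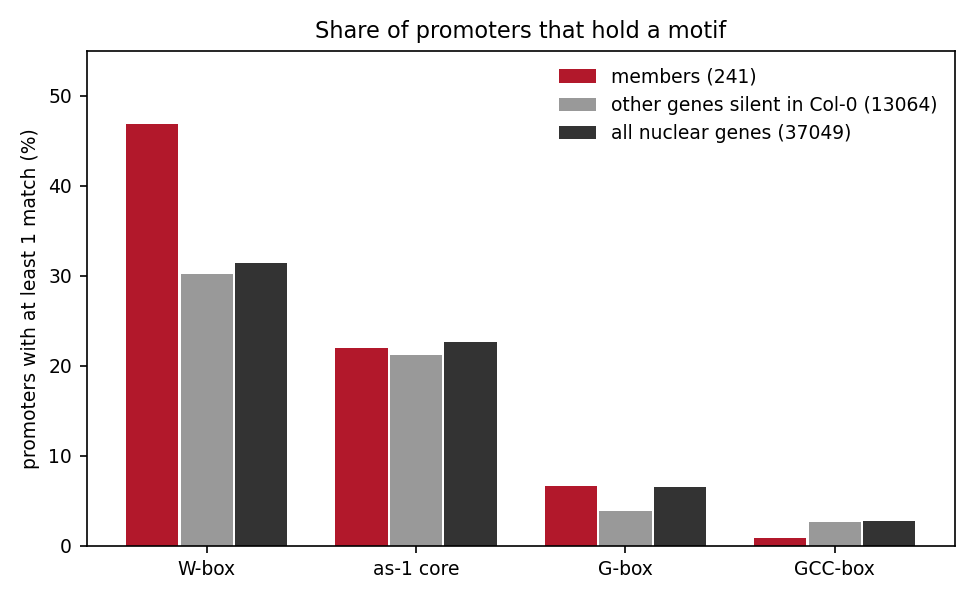
Share of promoters (%, vertical axis from 0) with at least 1 match of each motif on either strand in the 300 bases around the start, for the 241 genes (red), the other genes silent in Col-0 (grey) and all nuclear genes (black). The W-box stands at 46.9% in the genes, against 30.2% and 31.4%, while the bars of the as-1 core (TGACG) lie within 21.2% to 22.7%.

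In total, the 241 genes summed to 1082 and 1060 CPM in the *mips1* libraries, 39.2 and 36.4 CPM in the *mips1 big* libraries, 12.8 and 13.7 CPM in the *big* libraries, and 3.11 and 2.50 CPM in the Col-0 libraries. Per gene, the median was 2.11 and 2.01 CPM in *mips1*, 0.106 and 0.0977 CPM in *mips1 big*, 0.0279 and 0.0310 CPM in *big*, and 0 and 0.01 CPM in Col-0. In all 241 genes the lower *mips1* library lay above every other library, as the rule nearly requires. The sum was carried by few genes: 14.2% of it came from AT2G44240 and 33.2% from the first 10.

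Replicates were close in *mips1*. The ratio of the second to the first *mips1* library ran from 0.572 to 1.44 with a median of 0.952, and all 241 genes were within 2-fold. Levels were low for most genes even there, since 196 reached 1 CPM, 56 reached 5 CPM, 22 reached 10 CPM and 1 reached 100 CPM. Seen per gene, *mips1 big* held a median of 3.73% of the *mips1* level and *big* held 0.902%. In *mips1 big* 55 genes had at most 3 counts in each library, in *big* 132 did, and 8 genes had no count in any of the 6 libraries outside *mips1*.

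**Figure D2:**
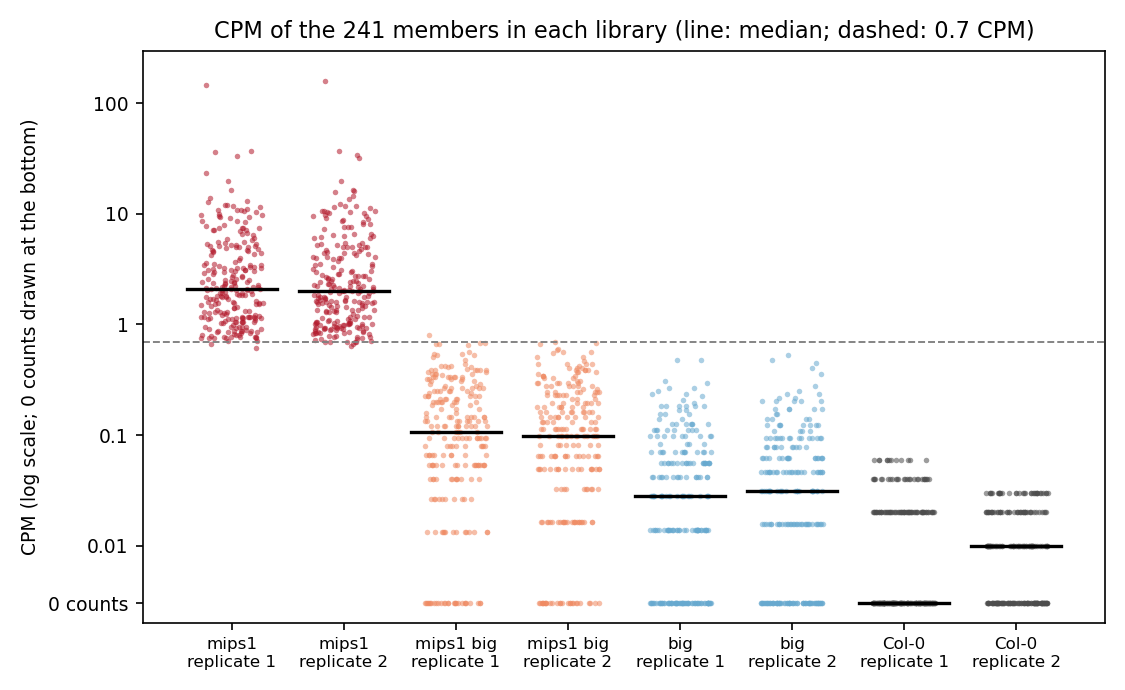
CPM of each of the 241 genes (points) in each of the 8 libraries on a log axis, with the median as a line, the threshold of 0.7 CPM dashed and genes with 0 counts at the bottom. The *mips1* medians lie at 2.11 and 2.01 CPM, the *mips1 big* medians at 0.106 and 0.0977 CPM, the *big* medians at 0.0279 and 0.0310 CPM and the Col-0 medians at 0 and 0.01 CPM.

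Because Col-0 levels were at the limit of detection, folds against it are bounds or carry wide intervals. For the 77 genes with no count in Col-0, the level was set to 3 counts per library, a mean of 0.0449 CPM, and the fold of *mips1* over this floor ran from 16.1 to 3391 with a median of 40.9. The fitted log2 fold change over all 241 genes had a median of 7.92, but it depends on the small count that edgeR adds, and with Col-0 at the floor the median was 5.52. All 241 passed the edgeR test in this contrast, where 36.0% of all genes tested were called higher, a count that the rule brought about. Intervals and floors cover counting error only.

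The most abundant of the genes was AT2G44240 (chr2:18289824-18292374 on the plus strand, TAIR10), which encodes a protein of the DUF239 family without an assigned function. It had 145 and 159 CPM in the *mips1* libraries, 0.213 and 0.277 CPM in the *mips1 big* libraries, 0.0977 and 0.0621 CPM in the *big* libraries and no count in either Col-0 library. Its *mips1* level was at least 3391-fold higher than in Col-0, and the next gene, *PER4*, averaged 36.7 CPM in *mips1*. *PER4*, a class III peroxidase, had 36.1 and 37.2 CPM in the *mips1* libraries, 0.425 and 0.146 CPM in the *mips1 big* libraries, 0.167 and 0.0931 CPM in the *big* libraries and 3 and 3 counts in the Col-0 libraries, and its *mips1* level was 921 times as high (95% counting interval 423 to 2510.1). *MIOX4* had 33.3 and 32.3 CPM in the *mips1* libraries, 0.173 and 0.195 CPM in the *mips1 big* libraries, 0.0558 and 0.0776 CPM in the *big* libraries and 0 and 3 counts in the Col-0 libraries, so that both *mips1* libraries stood far above all others. Its level in *mips1* was 1637 times as high (95% counting interval 559.8 to 7940.1). AT5G63225, with a carbohydrate-binding X8 domain, had 23.3 and 19.8 CPM in the *mips1* libraries, 0.266 and 0.326 CPM in the *mips1 big* libraries, 0.0419 and 0 CPM in the *big* libraries and 0 and 1 counts in the Col-0 libraries. AT3G13433, an uncharacterized gene, had 20.0 and 16.5 CPM in the *mips1* libraries, 0.412 and 0.407 CPM in the *mips1 big* libraries, 0.014 and 0 CPM in the *big* libraries and no count in either Col-0 library. For the last 2 genes the *mips1 big* libraries lay between those of *mips1* and *big* without overlap.

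Next in level came AT1G61080, a hydroxyproline-rich glycoprotein, with 16.6 and 16.1 CPM in the *mips1* libraries, 0.385 and 0.374 CPM in the *mips1 big* libraries, 0 and 0.0155 CPM in the *big* libraries and no count in either Col-0 library. The beta-glucosidase *BGLU27* had 13.1 and 14.4 CPM in the *mips1* libraries, 0.332 and 0.407 CPM in the *mips1 big* libraries, 0 and 0.0465 CPM in the *big* libraries and 2 and 3 counts in the Col-0 libraries. AT1G13310, with a BRO1-like domain known from endosomal sorting, had 11.8 and 11.8 CPM in the *mips1* libraries, 0.306 and 0.505 CPM in the *mips1 big* libraries, 0.0419 and 0.0465 CPM in the *big* libraries and 3 and 3 counts in the Col-0 libraries. In each of these 3 genes both *mips1 big* libraries were above both *big* libraries and far under *mips1*. Per kb of exon, the order changed in favour of short transcripts: after AT2G44240 (100.3 CPM per kb) stood AT3G13433 (36.3), the non-coding AT2G08960 (35.9) and AT5G05865 (34.6), AT5G63225 (34), the non-coding AT3G02705 (29.2), *PER4* (29), AT3G19615 (22.9), *MIOX4* (21.9) and AT3G56891 (18.8). These are mean levels in *mips1*, all in CPM per kb.

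**Figure D3:**
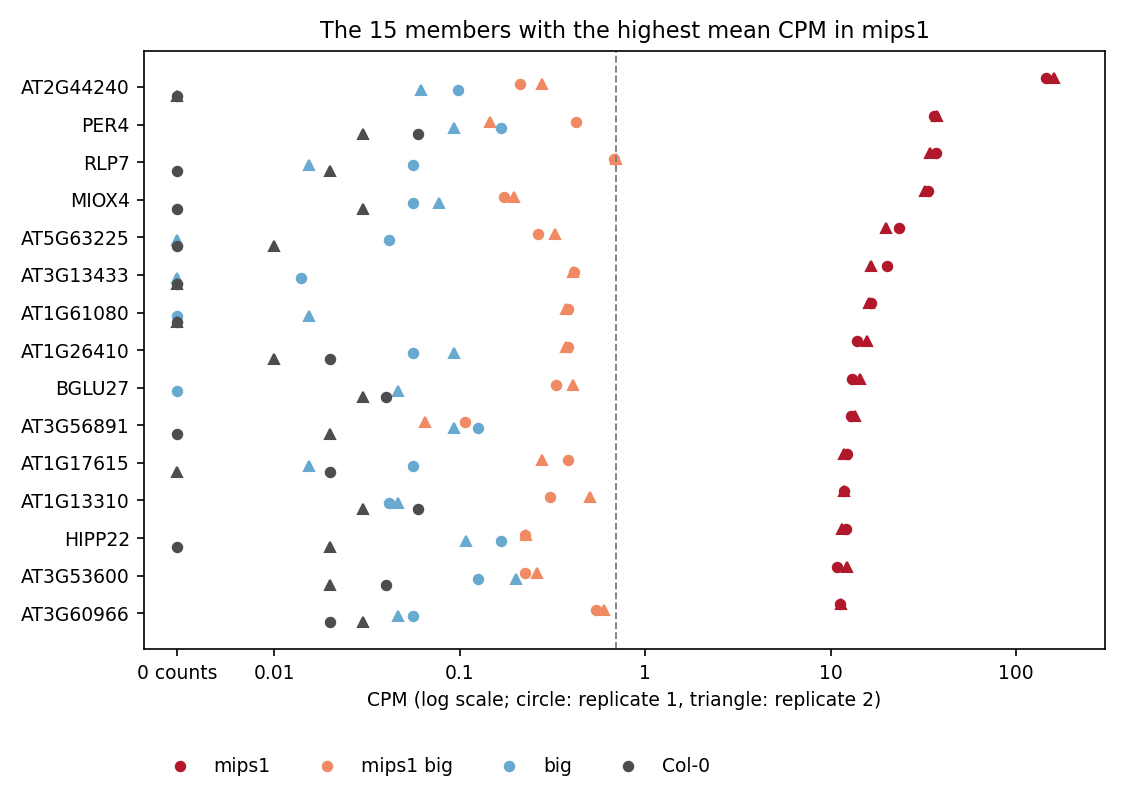
CPM on a log axis of the 15 genes with the highest mean in *mips1*, by genotype (colour) and replicate (circle and triangle), with the threshold of 0.7 CPM dashed. In each gene both *mips1* points stand apart to the right, from AT2G44240 at a mean of 152 CPM to AT3G60966 at 11.3 CPM, and *mips1 big* stays under 0.7 CPM.

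Among 7 receptor-like kinases and receptor-like proteins, which sense ligands outside the cell, levels in *mips1* ran from 1.61 to 35.6 CPM. *RLP7* led with 36.8 and 34.4 CPM in the *mips1* libraries, 0.678 and 0.7 CPM in the *mips1 big* libraries, 0.0558 and 0.0155 CPM in the *big* libraries and 0 and 2 counts in the Col-0 libraries. It was also the gene nearest under the threshold in *mips1 big*. *RLP28* had 10.6 and 9.67 CPM in the *mips1* libraries, 0.146 and 0.179 CPM in the *mips1 big* libraries, 0.0698 and 0.14 CPM in the *big* libraries and 0 and 2 counts in the Col-0 libraries. AT3G45330, a lectin receptor kinase, had 3.81 and 4.04 CPM in the *mips1* libraries, 0.12 and 0.114 CPM in the *mips1 big* libraries, 0 and 0.031 CPM in the *big* libraries and no count in either Col-0 library. The cysteine-rich receptor kinases *CRK32* and *CRK31*, which are adjacent on chromosome 4, averaged 2.92 and 1.94 CPM in *mips1*, with 0 and 1 counts of *CRK32* and 2 and 1 counts of *CRK31* in the Col-0 libraries.

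The 7 NBS-LRR and TIR proteins, intracellular immune receptors and their relatives, had a median of 6.61 CPM in *mips1* (0.797 to 12), 0.155 CPM in *mips1 big* and 0.0140 CPM in *big*. AT1G17615, a TIR-NBS protein, had 12.2 and 11.8 CPM in the *mips1* libraries, 0.385 and 0.277 CPM in the *mips1 big* libraries, 0.0558 and 0.0155 CPM in the *big* libraries and 1 and 0 counts in the Col-0 libraries. AT5G18350, a TIR-NBS-LRR protein, had 8.59 and 10.1 CPM in the *mips1* libraries, 0.213 and 0.0977 CPM in the *mips1 big* libraries, 0.014 and 0.0155 CPM in the *big* libraries and no count in either Col-0 library. AT4G11340, another TIR-NBS-LRR protein, had 7.49 and 7.62 CPM in the *mips1* libraries, 0.226 and 0.195 CPM in the *mips1 big* libraries, no count in the *big* libraries and 1 and 1 counts in the Col-0 libraries. No library of *big* or Col-0 held more than 4 reads of any of these 3 genes.

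Other kinases and phosphatases numbered 6, led by AT3G25490 at 4.97 ± 0.0347 CPM (SD, n = 2), AT1G67635, related to phosphatidylinositol 4-kinase, at 2.68 ± 0.483 CPM and AT5G41730 at 2.4 ± 0.151 CPM in *mips1*. These 3 had at most 1 count in any Col-0 library.

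Transcription factors were 12 in number. The C2H2 zinc finger gene AT3G53600 had 10.8 and 12.2 CPM in the *mips1* libraries, 0.226 and 0.26 CPM in the *mips1 big* libraries, 0.126 and 0.202 CPM in the *big* libraries and 2 and 2 counts in the Col-0 libraries. *MYB122*, one of the regulators of indole glucosinolate synthesis, had 8.56 and 8.73 CPM in the *mips1* libraries, 0.412 and 0.439 CPM in the *mips1 big* libraries, 0.0698 and 0.0931 CPM in the *big* libraries and no count in either Col-0 library. The AP2/ERF-type gene AT1G71520 had 6.05 and 4.47 CPM in the *mips1* libraries, 0.173 and 0.228 CPM in the *mips1 big* libraries, 0.0419 and 0.0465 CPM in the *big* libraries and 0 and 1 counts in the Col-0 libraries. In all 3 the *mips1* libraries were more than 10-fold above those of *mips1 big*. *WRKY72*, of the family that binds the W-box, averaged 5.25 ± 0.332 CPM in *mips1*, 0.0658 CPM in *mips1 big* and 0.0667 CPM in *big*. The class also held an NAC factor (AT3G12910, 2.86 CPM in *mips1*), *LBD35* (1.81 CPM) and *MYB101* (1.74 CPM).

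Small secreted peptides act as signals between cells, and 5 of the genes encode their precursors or other small secreted proteins. *PROPEP2*, the precursor of an elicitor peptide that is perceived as a danger signal, had 5.62 and 4.7 CPM in the *mips1* libraries, 0.199 and 0.277 CPM in the *mips1 big* libraries, 0 and 0.031 CPM in the *big* libraries and 0 and 2 counts in the Col-0 libraries. *IDA*, whose peptide triggers the shedding of floral organs, had 3.32 and 3.55 CPM in the *mips1* libraries, 0.0665 and 0.146 CPM in the *mips1 big* libraries, 0.0558 and 0.0931 CPM in the *big* libraries and 0 and 1 counts in the Col-0 libraries. The lipid transfer-type protein AT3G57310 averaged 1.61 ± 0.0544 CPM, *RALFL18* 1.08 ± 0.186 CPM and the phytosulfokine precursor *PSK6* 0.733 ± 0.0623 CPM in *mips1* (SD, n = 2).

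Of 8 cell wall enzymes, AT3G19615, annotated as a beta-xylosidase, led with 9.79 and 10.3 CPM in the *mips1* libraries, 0.332 and 0.293 CPM in the *mips1 big* libraries, 0.0698 and 0.031 CPM in the *big* libraries and 3 and 0 counts in the Col-0 libraries. The polygalacturonase *ADPG1*, which dissolves pectin where organs separate, had 4.63 and 6.33 CPM in the *mips1* libraries, 0.0798 and 0.0488 CPM in the *mips1 big* libraries, 0.014 and 0 CPM in the *big* libraries and 0 and 1 counts in the Col-0 libraries. *XTH29*, a xyloglucan endotransglucosylase/hydrolase, had 5.13 and 5.05 CPM in the *mips1* libraries, 0.332 and 0.342 CPM in the *mips1 big* libraries, 0.0977 and 0.155 CPM in the *big* libraries and 1 and 2 counts in the Col-0 libraries. In each of them both *mips1* libraries were more than 10-fold above every other library. A further polygalacturonase of abscission, *ADPG2* (listed as *PGAZAT*), averaged 2.97 ± 0.171 CPM and the chitinase *CHIA* 2.94 ± 0.277 CPM in *mips1*. The Col-0 libraries had 2 and 1 counts of *ADPG2* and 2 and 3 counts of *CHIA*.

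The class of 14 other oxidoreductases, led by *PER4* and *MIOX4*, included a pair of neighbouring berberine bridge enzyme-like genes. AT1G26410 had 13.9 and 15.7 CPM in the *mips1* libraries, 0.385 and 0.374 CPM in the *mips1 big* libraries, 0.0558 and 0.0931 CPM in the *big* libraries and 1 and 1 counts in the Col-0 libraries. AT1G26400 had 7.99 and 8.38 CPM in the *mips1* libraries, 0.093 and 0.114 CPM in the *mips1 big* libraries, 0.014 and 0.0621 CPM in the *big* libraries and 0 and 1 counts in the Col-0 libraries. The neighbour of *PER4*, the peroxidase gene AT1G14550, averaged only 1.62 CPM in *mips1*, against 36.7 CPM for *PER4*. Laccase *LAC7* averaged 3.71 ± 0.35 CPM in *mips1*.

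Among the enzymes of small molecules, *CYP82C2*, which hydroxylates an indole-derived cyanogenic compound, had 9.59 and 10.7 CPM in the *mips1* libraries, 0.146 and 0.0488 CPM in the *mips1 big* libraries, 0 and 0.124 CPM in the *big* libraries and no count in either Col-0 library. The other P450 genes were low, with 0.987 CPM for *CYP79A4P* and 0.935 CPM for *CYP76C3* in *mips1*. Glutathione transferases were represented by *GSTU12* (4.19 ± 0.154 CPM) and *GSTU25* (1.22 ± 0.117 CPM), and UDP-glycosyltransferases by AT4G15270 (3.04 ± 0.397 CPM), *UGT76D1* (1.37 ± 0.0527 CPM) and AT3G46680 (0.937 ± 0.175 CPM). *GolS10*, a galactinol synthase, the enzyme class that joins galactose to myo-inositol, averaged 1.42 ± 0.151 CPM in *mips1* and had no count in any library of *mips1 big* or *big*. *PCK2*, a phosphoenolpyruvate carboxykinase of gluconeogenesis, averaged 7.93 ± 0.147 CPM, the ethylene precursor enzyme *ACS7* 2.47 ± 0.015 CPM and isocitrate lyase *ICL* 0.881 ± 0.339 CPM in *mips1* (SD, n = 2). These last 4, with *LAC7*, *CRK32*, *CRK31*, *WRKY72*, the NAC factor, *LBD35*, *MYB101*, *CHIA*, *ADPG2*, AT1G14550, AT1G26400, *RALFL18* and *PSK6*, were added to the ranked genes after their values were seen.

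Transporters and metal-binding proteins made up 9 of the genes, and heavy-metal-associated proteins led them. AT3G56891 had 12.8 and 13.6 CPM in the *mips1* libraries, 0.106 and 0.0651 CPM in the *mips1 big* libraries, 0.126 and 0.0931 CPM in the *big* libraries and 0 and 2 counts in the Col-0 libraries. *HIPP22* had 12 and 11.5 CPM in the *mips1* libraries, 0.226 and 0.228 CPM in the *mips1 big* libraries, 0.167 and 0.109 CPM in the *big* libraries and 0 and 2 counts in the Col-0 libraries. AT2G35730 had 10.9 and 9.65 CPM in the *mips1* libraries, 0.359 and 0.309 CPM in the *mips1 big* libraries, 0.014 and 0.0931 CPM in the *big* libraries and no count in either Col-0 library. In AT3G56891 the *mips1 big* and *big* libraries overlapped, whereas in AT2G35730 both *mips1 big* libraries were above both *big* libraries.

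Proteases and their relatives numbered 7, with *MMP*, a matrix metalloproteinase, at 10.8 and 10.7 CPM in the *mips1* libraries, 0.399 and 0.326 CPM in the *mips1 big* libraries, 0.014 and 0.0621 CPM in the *big* libraries and 0 and 1 counts in the Col-0 libraries. AT2G30660, listed as a Clp protease-like gene, averaged 5.38 ± 0.0645 CPM and the carboxypeptidase-like *scpl14* 2.85 ± 0.199 CPM in *mips1*. Ubiquitin ligases and F-box proteins, which mark proteins for breakdown, were 11, with a median of 2.12 CPM in *mips1*. The RING/U-box gene AT3G60966 had 11.2 and 11.4 CPM in the *mips1* libraries, 0.545 and 0.602 CPM in the *mips1 big* libraries, 0.0558 and 0.0465 CPM in the *big* libraries and 1 and 3 counts in the Col-0 libraries. AT2G24285, a RING finger gene, averaged 5.69 ± 0.338 CPM and the F-box gene *PP2-B6* 3.07 ± 0.0528 CPM in *mips1*.

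A total of 43 genes had no informative product and a further 70 had a domain or family name outside the classes above. AT4G39610, a MIZU-KUSSEI-like protein, followed in the first of these groups after AT2G44240 and AT3G13433, with 11.6 and 10.6 CPM in the *mips1* libraries, 0.359 and 0.374 CPM in the *mips1 big* libraries, 0.014 and 0 CPM in the *big* libraries and no count in either Col-0 library. The 20 non-coding RNA genes were led by AT2G08960 (7.37 ± 0.339 CPM in *mips1*), AT3G02705 (7.16 ± 0.214 CPM) and AT1G04103 (6.69 ± 0.0762 CPM). Pseudogenes and transposable element genes were 14, led by AT3G30844 (5.01 ± 0.76 CPM), AT1G35735 (4.1 ± 0.479 CPM) and AT2G37830 (2.96 ± 0.974 CPM). Of the 14, 9 had no count in Col-0. Protein-coding genes were 207 of the 241 (85.9%), against 45.7% of the other genes silent in Col-0 and 74.0% of all nuclear genes. The median summed exon length was 1062 bp, against 770 bp and 1391 bp.

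The genes were spread over all chromosomes, with 72, 42, 50, 29 and 48 on chromosomes 1 to 5, which is 5.09 (chromosome 4) to 7.59 (chromosome 1) for every 1000 annotated genes. In 28 places, 67 genes lay within 10 kb of another of the set. The largest group, of 5, held uncharacterized genes, pseudogene or transposable element loci and a non-coding RNA around AT1G36640 on chromosome 1. A cluster held 4 DUF1262 genes, AT1G13480, AT1G13530, AT1G13540 and AT1G13550 (chr1, 4622550 to 4638330). The last 3 are direct neighbours, and AT1G13480 is separated from them by genes outside the set. They had 9.88, 4.63, 1.07 and 2.11 CPM in *mips1*. Reads from near-identical copies, which such clusters can hold, are less certain to be assigned to the right gene. The cluster and the group around AT1G36640 were picked after their values were seen. Of 258 tested direct neighbours outside the set that shared no exon bases with it, 131 (50.8%) were called higher in *mips1* than in Col-0, beside 36.0% of all genes tested, without a test of that difference.

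Exon bases were shared with another gene by 38 of the 241 (15.8%, against 26.9% of all nuclear genes), in 34 of them on the opposite strand. The reads were counted without regard to strand and assigned to each gene they touch, so the reads of such partners cannot be told apart. Non-coding AT2G08960 lies entirely within the exons of *DREB19* on the other strand, which had 2048 and 2978 counts in *mips1*, 196 and 192 in *mips1 big*, 166 and 167 in *big* and 161 and 166 in Col-0. AT3G55900 shares 56.6% of its exon bases with AT3G55890, which had 70 and 52 counts in *mips1 big* and 108 and 80 in *big*, *MMP* shares 21.4% with AT1G70175, and AT3G19615 shares 26.9% with AT3G19613. AT4G11340 shares 5.1% of its exon bases with *MPK5*, AT1G04103 shares 38.8% with *MAN1* and AT5G05865 shares 11.6% with AT5G38900. Pairs within the set, such as AT1G53970 and AT1G53980 or AT2G01379 and AT2G03945, share most of the bases of the shorter gene and count largely the same reads.

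Whether these genes differed with the *mips1* mutation in plants that also carry the *big* mutation was asked by comparing *mips1 big* with *big*. Of the 241 genes, 79 (32.8%) were called higher in *mips1 big* by edgeR's quasi-likelihood test (Benjamini-Hochberg adjusted p under 0.05 over 23916 genes), where 8.46% of all genes tested were called higher. Many of the 241 passed the filter on low counts through their level in *mips1*, which the rule had set: with the 4 libraries of *mips1 big* and *big* alone, 86 passed it and 57 were called, beside 3710 of all 23148 genes then tested called higher. The share of 32.8% is therefore not one over genes filtered on these 2 lines. None was called lower, where 10.8% of all genes were, and DESeq2 also called none lower. However, 132 of the 241 had at most 3 counts in each *big* library, and 40 had none. Such genes can hardly be called lower in *mips1 big*, so the lack of lower calls says little on their direction. At an unadjusted p under 0.05, 96 were higher and 2 lower. The median log2 fold change was 1.16, against -0.0045 over all genes tested, and 1.17 over the 180 genes above the floor in either line once those at 0 were set to it. Both *mips1 big* libraries lay above both *big* libraries in 150 genes (62.2%, against 49.7% of all genes) and under them in 5 (18.6% of all genes). These positions were taken in CPM, which are scaled to the library size alone. With that scaling the median log2 fold change over all genes tested was 0.1046, in place of -0.0045. The shares above are therefore shifted upward for genes in general, and 62.2% is to be read only beside 49.7%. With scaling to the library size alone, all genes tested split into 4172 higher and 1476 lower in place of 2023 and 2583, and 88 of the 241 were called higher. Without the first *big* library 49 of them were called, and DESeq2 called 63, all of them among the 79.

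The levels in *mips1 big* were capped by the rule and those in *mips1* had a minimum, so the distance to *mips1* is a description. The 79 genes stood in *mips1 big* at a median of 5.07% of their *mips1* level, with a range of 0.161% to 43.0%. The median in *mips1* was 4.15 CPM for the genes called and 1.63 CPM for the 162 others, of which 61 were at or under the floor of 3 counts per library in both *mips1 big* and *big*. For these 61 the counts were too low to read a difference. Of them, AT1G36623 (3 summed counts in *mips1 big*, 0 in *big*) is still among the genes higher at an unadjusted p under 0.05 (edgeR). AT2G01920 (0 and 3 summed counts) is among those lower. A W-box was found in 46.8% of the 79 promoters and in 46.9% of the 162.

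**Figure D4:**
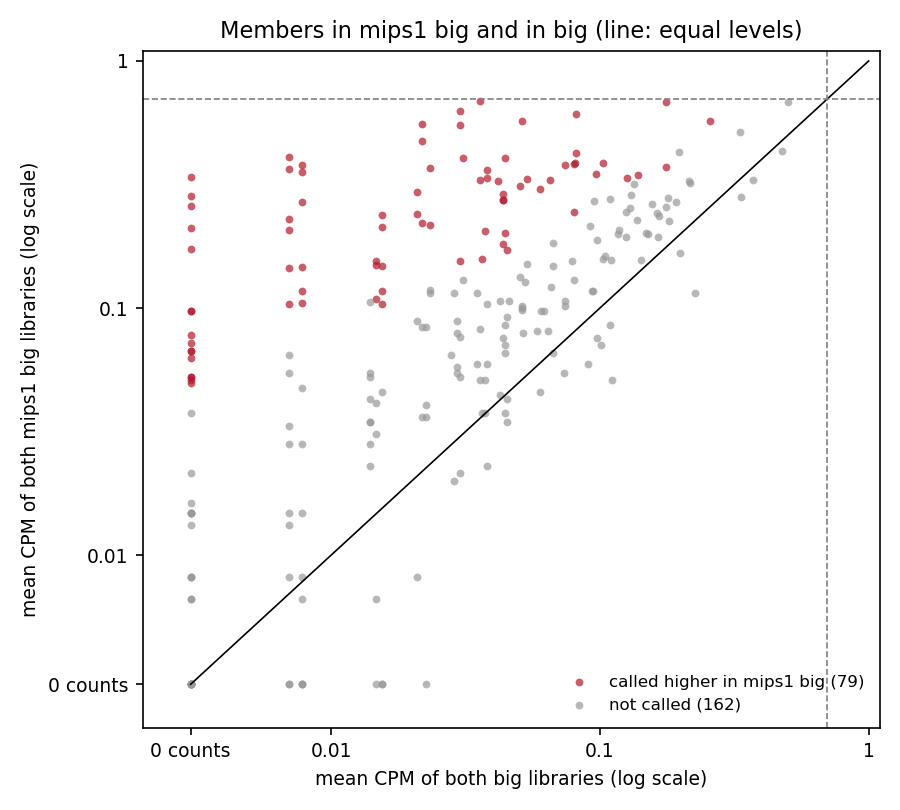
Mean CPM in the *mips1 big* libraries (vertical, log axis) against the mean in the *big* libraries (horizontal, log axis) for the 241 genes, with equal levels as a line, 0.7 CPM dashed and 0 counts at the lower ends. The 79 genes called higher in *mips1 big* (red) lie above the line, and no gene under the line was called.

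The 5 genes with the largest fitted change all lacked reads in both *big* libraries, so their folds are bounds. *GLP6*, a germin-like protein, had 29 and 18 counts in *mips1 big* and was at least 7.68-fold higher than in *big* (adjusted p = 0.00013 in edgeR's test). In *mips1* it had 1.14 and 1 CPM, and in Col-0 0 and 1 counts. AT2G23830, a PapD-like protein, had 23 and 16 counts in *mips1 big* and was at least 6.41-fold higher (adjusted p = 8.23e-05, edgeR). The F-box gene AT3G55900 had 17 and 18 counts and was at least 5.87-fold higher (adjusted p = 0.000493, edgeR), and the TIR-NBS-LRR gene AT4G11340 had 17 and 12 counts and was at least 4.77-fold higher (adjusted p = 9.85e-05, edgeR). *RSH4*, named as a root hair gene, had 15 and 9 counts in *mips1 big* and was at least 3.91-fold higher (adjusted p = 0.00123, edgeR), in libraries whose 4 root markers summed to at most 0.120 CPM.

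Genes with reads in both lines allowed a ratio. *RLP7* was higher in *mips1 big* (log2 fold change 4.06 ± 0.35 (SE), adjusted p = 4.71e-06 in edgeR), with a ratio of summed counts of 18.7 (95% counting interval 7.75 to 59). The RING/U-box gene AT3G60966 also was (log2 fold change 3.32 ± 0.29 (SE), adjusted p = 4.73e-06, edgeR), as was *NHL25*, related to a regulator of disease resistance, with 42 and 24 counts in *mips1 big* and 2 and 1 in *big* (log2 fold change 4.23 ± 0.42 (SE), adjusted p = 1.43e-05, edgeR). *MYB122* rose with log2 fold change 2.26 ± 0.30 (SE), adjusted p = 0.000263 (edgeR). *PROPEP2* had 15 and 17 counts in *mips1 big* and 0 and 2 in *big* (log2 fold change 3.74 ± 0.70 (SE), adjusted p = 0.00242, edgeR). AT2G44240, at 16 and 17 counts in *mips1 big* and 7 and 4 in *big*, was called as well (log2 fold change 1.45 ± 0.34 (SE), adjusted p = 0.0145, edgeR), although its *mips1 big* level was 0.161% of that in *mips1*. *NHL25* is named here after its values were seen.

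Other leading genes of *mips1* did not pass this test. *PER4* had 32 and 9 counts in *mips1 big* and 12 and 6 in *big* (log2 fold change 1.05 ± 0.48 (SE), adjusted p = 0.166, edgeR), where both groups overlap. *MIOX4* had 13 and 12 counts in *mips1 big* and 4 and 5 in *big* (log2 fold change 1.34 ± 0.39 (SE), adjusted p = 0.0518, edgeR). For *RLP28* the counts were 11 and 11 in *mips1 big* and 5 and 9 in *big* (log2 fold change 0.53 ± 0.41 (SE), adjusted p = 0.472, edgeR), for *CYP82C2* 11 and 3 in *mips1 big* and 0 and 8 in *big* (log2 fold change 0.67 ± 1.03 (SE), adjusted p = 0.716, edgeR), and for *WRKY72* 5 and 4 in *mips1 big* and 4 and 5 in *big* (log2 fold change -0.11 ± 0.47 (SE), adjusted p = 0.932, edgeR). The ratio of summed counts was 2.27 (95% counting interval 1.27 to 4.2) for *PER4*, 2.77 (95% counting interval 1.25 to 6.74) for *MIOX4* and 0.996 (95% counting interval 0.35 to 2.83) for *WRKY72*, so these genes are not shown to be equal in both lines.

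By class, 5 of 7 NBS-LRR and TIR genes were called higher in *mips1 big* (median log2 fold change 3.19), as were 6 of 11 ubiquitin ligase and F-box genes (3.16), 4 of 8 cell wall enzymes (2.09), 2 of 6 other kinases and phosphatases (2.26), 3 of 7 receptor-like kinases and proteins (1.24), 4 of 12 transcription factors (1.18), 5 of 14 other oxidoreductases (1.33) and 7 of 20 non-coding RNA genes (1.57). Also called were 3 of 9 transporters (0.84), 1 of 3 UDP-glycosyltransferases (1.03), 1 of 5 small peptides (0.57), 1 of 7 proteases (0.68), 2 of 14 pseudogenes and transposable element genes (0.18), 15 of 43 unnamed genes (0.81) and 20 of 70 other named genes (0.97). None was called among the 3 P450 genes (0.36) and the 2 glutathione transferases (0.73). Among the called non-coding genes, AT2G08960, AT5G05865 and AT2G03945 share exon bases with another gene. Their reads cannot be told apart from those of the partner, so these calls may be the partner's. The called non-coding genes AT3G02705 and AT4G39404 share none. No difference between classes was tested. Against the 8.46% of all genes called higher, the classes are described only, since their members were gathered with the results known. Many of these genes also passed the filter on low counts only through their level in *mips1*. With the libraries of *mips1 big* and *big* alone, 86 of the genes passed it and 57 were called. These were not divided by class, so the class counts are not shares of genes filtered on both lines.

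**Figure D5:**
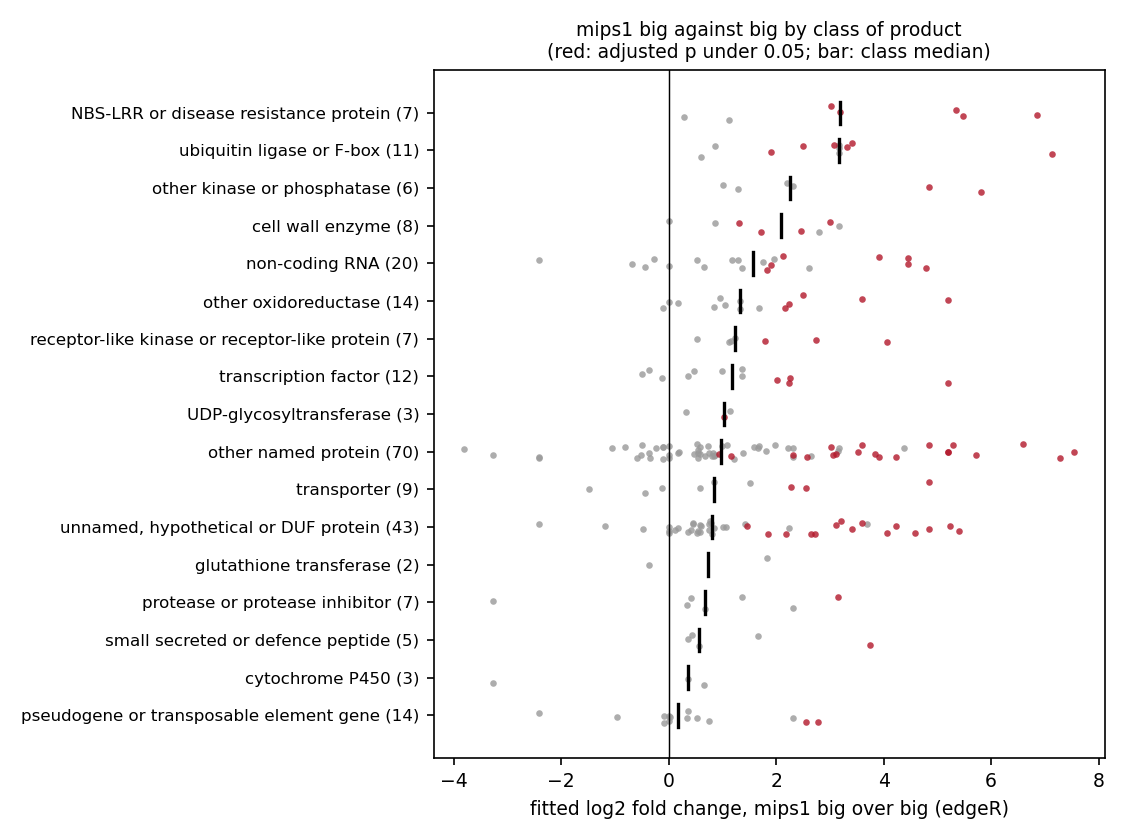
Fitted log2 fold change of *mips1 big* over *big* for each of the 241 genes by class of product, with called genes in red, the others in grey and the class median as a bar. Medians run from 3.19 for NBS-LRR genes to 0.18 for pseudogenes and transposable element genes, and values of genes without reads in 1 of the lines depend on the small count added in the fit.

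Against Col-0, the rule capped both lines with the *big* mutation, and their values are a description. In *mips1 big*, 151 of the genes were called higher than in Col-0, where 31.1% of all genes tested were, and none lower, where 30.7% were, with a median fitted log2 fold change of 2.98. In *big*, 61 were called higher, where 25.6% of all genes were, and 2 lower, where 23.6% were, with a median of 1.63. These comparisons share the Col-0 libraries. Nearest under the threshold in *mips1 big* were *RLP7* (0.689 CPM), AT5G22545 (0.682 CPM) and *CEP2*, a cysteine proteinase (0.681 CPM). Nearest in *big* were *CEP2* (0.501 CPM), AT3G29970 (0.478 CPM) and AT2G09420 (0.371 CPM). *CEP2* was the gene that differed least between lines, at 0.941 and 0.871 CPM in *mips1*, 0.678 and 0.684 CPM in *mips1 big* and 0.474 and 0.527 CPM in *big*, with no count in Col-0.

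The threshold in *mips1* cut through a continuous range. Just inside were the pseudogene or transposable element locus AT4G08860 (0.723 CPM), AT2G44390 (0.723 CPM) and the potassium transporter *HAK5* (0.73 CPM), and just outside were AT5G31122 (0.686 CPM), AT1G54890 (0.685 CPM) and AT3G61185 (0.674 CPM). In 9 of the 241 genes 1 of the *mips1* libraries was itself under 0.7 CPM.

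Known defence pathways were followed by lists of genes outside the set, whose counts stand beside 36.0% of all genes called higher in *mips1* than in Col-0, and 8.46% called higher and 10.8% called lower in *mips1 big* than in *big*. All 12 genes of SA synthesis and response were called higher in *mips1* than in Col-0 (median log2 fold change 3.61), among them *ICS1*, the main SA synthesis enzyme (3.90 ± 0.09, SE, adjusted p = 1.20e-12, edgeR), and the marker *PR1* (10.54 ± 0.14, SE, adjusted p = 3.15e-14, edgeR). In *mips1 big* against *big*, 5 of the 12 were called higher and 2 lower, and *ICS1* changed by 0.86 and *PR1* by 3.73 on the log2 scale. The 2 called lower were *CBP60G*, an activator of SA synthesis (log2 fold change -0.26), and the SA receptor *NPR1* (-0.22). All 4 genes of N-hydroxypipecolic acid, a mobile signal of systemic resistance, were called higher in both contrasts (medians 6.78 in *mips1* against Col-0 and 4.37 in *mips1 big* against *big*), with *FMO1* at 10.55 and 5.00. All 5 camalexin genes also were (medians 5.65 and 1.85), with *PAD3*, the last enzyme of that pathway, at 8.05 and 5.63. Of 4 senescence genes, 3 passed the filter on low counts and all 3 were called higher in *mips1*, against 2 of 3 in *mips1 big* relative to *big*. The gene that did not pass was *SAG12*, with 1 and 1 counts in the *mips1* libraries and 0 and 0 in the Col-0 libraries. None of these genes met the rule of the set.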

How the data were processed

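Gene expression was measured by single-end RNA sequencing of poly(A) RNA in 8 libraries, 2 per genotype. According to the study's methods, reads were trimmed with Trimmomatic and aligned to TAIR10 with STAR (2.7.0d in the submitters' processing notes). Per the file headers, they were counted over Araport11 genes with featureCounts (1.6.3). Its settings allowed multi-mapping and overlapping reads, required a mapping quality of at least 10 and ignored strand. Whether any multi-mapping read passed that minimum was not checked. Raw counts per gene, as the authors deposited them, were used here, and the other unit in the deposited table is the summed exon length, used only for levels per kb. The authors' normalized values and their tables of log2 fold changes and p-values were not used. The members and the gene lists were chosen with earlier results of these data known. All 37336 genes entered edgeR 4.0.16 (R 4.3.3; TMM scaling, filterByExpr, robust quasi-likelihood fit over all 8 libraries, 23916 genes and all 241 members tested), with Benjamini-Hochberg adjustment over all genes tested and a threshold of 0.05. Standard errors were derived from the fold change and the F statistic of each gene. The fit was tested on simulated data, in which only genes above the level that the rule allows in *mips1 big* and *big* were changed. That test therefore does not cover levels as low as those of the members in these lines. DESeq2 1.42.0, limma 3.58.1, pandas 2.3.3, scipy 1.17.1 and matplotlib 3.10.9 were also used. Counting intervals are exact 95% intervals. Named genes were the 15 with the highest mean CPM and the 10 with the highest CPM per kb in *mips1*, the first 3 of each class, the 5 with the largest fitted change in *mips1 big* against *big*, and the 3 nearest each threshold. Gene names came from RefSeq TAIR10.1, which matched all 241, and 99.5% of 37039 nuclear genes had identical positions in both annotations. Alternatives were other scalings, filters and tools, the replicate block, single libraries left out, other limits for choosing the genes and, chosen after seeing the data, counting only genes without shared exon bases.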

Additional observations from a re-analysis of the deposited data

How the results depend on the processing

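In *mips1 big* against *big*, the number of the 241 genes called higher was 79, and 49 to 89 when 1 library was left out (49 without the first *big* library, of which 47 were among the 79). It was 83 with RLE factors, 88 with library size scaling or without a filter, 57 with only the 4 libraries of both genotypes, 63 with DESeq2 and 63 of 203 without shared exon bases. None was called lower in any of these, where low counts in *big* left little room for such a call. With library size scaling, which moved the median of all genes by 0.10 on the log2 scale, 4172 genes of the whole table were called higher and 1476 lower. With only the 4 libraries, 3710 were called higher and the median of the 86 members then tested was 2.08. Leaving out 1 library gave 884 to 3652 genes higher, 1201 to 3939 lower and a median of 0.99 to 1.36 for the members. The largest of these counts of genes called higher, 3412 and 3652, came without the first and without the second Col-0 library. The median log2 fold change of *mips1* against Col-0 was 7.91 to 8.92 when 1 library was left out and 5.52 with Col-0 at 3 counts per library. A limit of 1 or 10 counts in Col-0 would choose 149 or 372 genes. The core TTGAC was in 66.4% of the promoters, against 48.3% for the other genes silent in Col-0 and 49.5% for all nuclear genes. On the same strand, 6 members (2.49%) overlap a gene, against 4.22% of all nuclear genes. The cause of these shifts was not tested. *GLP6*, AT2G23830, AT3G55900, AT4G11340 and *RSH4* kept their direction and call in all settings that gave a value (*RSH4* had none with only the 4 libraries).

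Replicate numbers are shared between genotypes. With the replicate number as a block, 77 of the 79 genes were called and no other. The difference in log CPM between both libraries of a genotype was correlated between genotypes, with values from -0.218 to 0.211. These mixed signs show no common shift by replicate number, but they cannot settle whether the samples were paired. Low counts in *big* limit the comparison, since 40 members had none in either *big* library.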
